A study of Mus musculus with 11 samples.

Results

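Pear1 and Lrg1 were examined beside 8 genes that mark vascular endothelium, Cdh5, Pecam1, Kdr, Tek, Tie1, Eng, Vwf and Cldn5, in the eyes of wild-type (WT) and miR-211-/- (KO) mice. These 10 genes were among 38393 genes listed per library, and all 10 passed the filter on low values that left 15767 genes to test. Pear1 and Lrg1 were chosen by their place in the KO against WT contrast, where they ranked 2 and 3 of the genes tested by p-value, so their values in that contrast are given as a description with no test. The 8 endothelial genes were listed by identity, to ask whether the lower Pear1 and Lrg1 of KO eyes followed the amount of endothelium. RNA-seq was available for 5 WT and 6 KO libraries. Each was made from the whole eye without lens and cornea, which leaves retina, retinal pigment epithelium, choroid, sclera and ciliary body.

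The KO mice carried a germline deletion of the miR-211 precursor, which lies in an intron of Trpm1, on a C57Bl/6J background. The controls were age-matched littermates without the deletion, and all mice were 1 to 2 months old. According to the methods all KO mice were males and WT mice were of both sexes. Xist, transcribed in females, was at 796 to 1636 CPM (counts scaled to the effective library size) in WT replicates 1, 3 and 5, at 0.451 and 0.853 CPM in WT replicates 2 and 4, and at most at 1.29 CPM in KO. Sex and genotype therefore partly cannot be told apart. Total counts ran from 20282241 to 36317673 per library. Mir211 itself had no count in any library of either group, since this protocol reads long RNA, and so did not check the labels. Its host gene Trpm1 was at 430 ± 67.2 CPM in WT (SD, n = 5) and 433 ± 19.1 CPM in KO (SD, n = 6).

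Endothelial cells line every vessel and are held together by junctions that contain VE-cadherin, PECAM1 and claudin-5. They sense vascular growth factors through receptor tyrosine kinases, and they take up signals of the TGF-beta family with the help of endoglin. The eye has a tight-barrier circulation in the retina and a fenestrated one in the choroid, and both are in these libraries. PEAR1 is a transmembrane receptor with EGF-like repeats found on platelets and endothelial cells. LRG1 is a secreted leucine-rich glycoprotein that modulates endothelial TGF-beta signalling through endoglin and is also made in the acute-phase response. In whole tissue, fewer endothelial cells and less RNA per endothelial cell cannot be told apart.

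The microRNA that KO mice lack is shown first, beside its paralog miR-204, because both share the seed that selects targets. The seed, bases 2 to 8, is in capitals, and the sequences are from RefSeq (GRCm38.p6). miR-211 is at chr7:64205831-64205852 on the plus strand, in a Trpm1 intron, and miR-204 at chr19:22750610-22750631 on the plus strand.
mmu-miR-211-5p: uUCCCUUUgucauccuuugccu
mmu-miR-204-5p: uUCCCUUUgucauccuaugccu
Counted from 1 at the 5′ end, the only difference between them was U17A, outside the seed. The 7-base match to this seed, AAAGGGA, was searched on the sense strand of the longest annotated 3′ untranslated region of each member. It occurred in 1 of the 10 members, Cdh5, at position 400 of a 1513-base region, shown here with the match in capitals.
Cdh5 3′ untranslated region: aagtccaatctAAAGGGAggctgtaactca
Neither Pear1, with 1049 bases, nor Lrg1, with 264 bases, held the match. Among 14505 tested genes with such a region, 16.6% held it. Their median log2 fold change was 0.02, and that of genes without it was -0.0031.

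Promoters, from 250 bases before to 50 bases after the start, were held for 7 of the 10 members in the RefSeq table (GRCm38.p6). Those of Pear1, Lrg1 and Eng are shown because these 3 genes had the most separated groups among the members. Capitals mark AGGAAG and its reverse complement CTTCCT, the ETS core GGAA with an A before and a G after it. The Pear1 window lies at a RefSeq start inside the Gencode gene body, not at the 5′ end of that body. ETS factors act at many endothelial promoters.
Pear1, chr3:87768904-87769203, minus strand: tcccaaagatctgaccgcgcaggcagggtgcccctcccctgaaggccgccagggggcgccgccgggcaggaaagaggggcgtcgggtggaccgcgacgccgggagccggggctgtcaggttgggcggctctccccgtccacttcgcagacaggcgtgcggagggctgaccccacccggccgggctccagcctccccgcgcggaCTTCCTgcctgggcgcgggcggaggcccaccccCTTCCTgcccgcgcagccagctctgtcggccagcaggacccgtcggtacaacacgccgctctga
Lrg1, chr17:56121897-56122196, minus strand: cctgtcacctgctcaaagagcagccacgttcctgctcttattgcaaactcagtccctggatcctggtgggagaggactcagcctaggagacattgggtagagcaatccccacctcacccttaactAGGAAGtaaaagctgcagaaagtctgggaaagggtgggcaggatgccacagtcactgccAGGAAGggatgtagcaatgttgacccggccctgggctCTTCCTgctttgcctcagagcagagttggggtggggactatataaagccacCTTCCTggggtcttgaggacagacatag
Eng, chr2:32646345-32646644, plus strand: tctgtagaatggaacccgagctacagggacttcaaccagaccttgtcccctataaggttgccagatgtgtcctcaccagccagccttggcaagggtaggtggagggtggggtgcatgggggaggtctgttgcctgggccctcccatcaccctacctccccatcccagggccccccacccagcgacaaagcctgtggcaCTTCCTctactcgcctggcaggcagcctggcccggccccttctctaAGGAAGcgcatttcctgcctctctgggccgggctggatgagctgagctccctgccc
AGGAAG occurred 2 times in Pear1, 4 times in Lrg1 and 2 times in each of Eng and Tie1. It did not occur in the windows of Kdr, Tek and Cldn5. Of 32851 promoters in the table, 35.4% held it, and the shorter core GGAA, with which it overlaps, was in 96.0%. Neither CCGGAAGT nor the STAT palindrome TTCNNNGAA, searched on both strands, was in any of the 7 windows, against 3.89% and 8.30% of all promoters. TATAAA was in the window of Lrg1 and in 13.6% of all promoters. The Pear1 window was 75.0% G and C, against a median of 52.7% over all promoters. The windows describe letters only.

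Pear1, on chromosome 3 at 87747890 to 87824306 on the minus strand, was at 13.8, 12.01, 12.96, 14.4 and 11.6 CPM in WT replicates 1 to 5. In KO replicates 1 to 6 it was at 9.80, 8.96, 8.98, 8.98, 8.96 and 8.56 CPM. No KO library reached the lowest WT library. The means were 12.97 ± 1.18 CPM (SD, n = 5) and 9.04 ± 0.405 CPM (SD, n = 6), and the fitted log2 fold change was -0.52 with a standard error of 0.12. KO thus held 69.7% of the WT level. Such separation of the groups towards lower values was seen for 12 of the 15767 genes tested, or 0.0761%, and is what the choice of Pear1 used. The counts behind these values were 281 to 389 per library in WT and 195 to 326 in KO. WT replicates 2 and 4, with Xist as low as in KO, were at 12.01 and 14.4 CPM, above the highest KO library.

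Lrg1, a compact gene on chromosome 17 at 56119678 to 56122001 on the minus strand, was much less abundant. It was at 5.11, 3.57, 2.55, 4.11 and 2.49 CPM in WT replicates 1 to 5. KO replicates 1 to 6 were at 2.71, 2.01, 1.29, 1.12, 1.26 and 1.24 CPM. KO replicate 1 lay above WT replicates 3 and 5, and the other KO libraries were below every WT library. The means were 3.56 ± 1.10 CPM (SD, n = 5) and 1.61 ± 0.627 CPM (SD, n = 6), with a fitted log2 fold change of -1.15 and a standard error of 0.30. KO held 45.0% of the WT level. Only 26 to 144 counts per library stood behind Lrg1, so its values carry more counting error than those of Pear1. WT replicates 2 and 4 were again above the highest KO library.

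**Figure D1:**
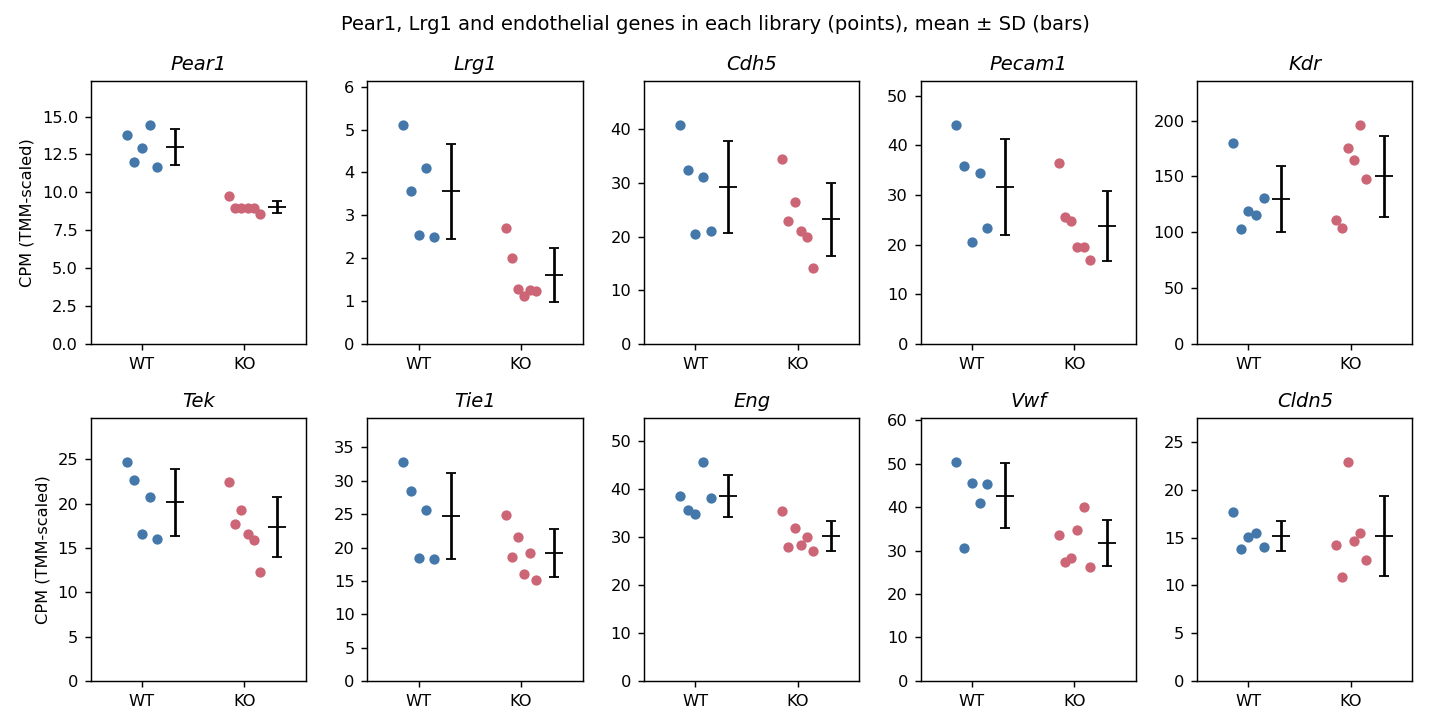
CPM of the 10 genes in each WT (blue, n = 5) and KO (red, n = 6) library, on linear axes from 0, with the group mean and SD as bars. The groups of Pear1 do not overlap, those of Lrg1 overlap through KO replicate 1 at 2.71 CPM, and those of the other 8 genes overlap.

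None of the 8 endothelial genes was called as different between KO and WT in the fit over all genes (edgeR likelihood ratio test, Benjamini-Hochberg adjusted p = 1.00 for each). Over all genes tested 1 was called at an adjusted p under 0.1, or 0.00634%, and this was Xist. At an unadjusted p under 0.05 with lower KO values, 2 of the 8 passed, Eng and Vwf, against 1.77% of all genes tested. With the library naming scheme, described further on, as a covariate in edgeR, 6 of the 8 passed, against 825 of 15767 genes, and none was called. The fitted value was below 0 for 7 of 8, against 48.9% of all genes, and the median over the 8 was -0.34, against 0.0027 over all genes. Without WT replicate 1, 6 of 8 were below 0 and the median was -0.21, with Cdh5 at -0.18 and Pecam1 at -0.26. The 8 values come from the same libraries and mostly the same cells, so they are not independent of each other.

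Endoglin (Eng), the co-receptor through which LRG1 acts, was nearest to separation. WT replicates 1 to 5 were at 38.5, 35.6, 34.9, 45.7 and 38.1 CPM, and KO replicates 1 to 6 at 35.4, 27.9, 31.9, 28.4, 30.1 and 27.0 CPM. KO replicate 1 lay above WT replicate 3, and the other 5 KO libraries were below every WT library. In FPKM, which also scales by transcript length, all 6 KO libraries were below every WT library, at 9.26 to 11.6 against 12.3 to 14.4. How many of all genes were separated in FPKM was not counted. The log2 fold change was -0.36 with a standard error of 0.11 (unadjusted p = 0.00173 in edgeR).

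Von Willebrand factor (Vwf), which tethers platelets to injured vessel walls, was at 50.5, 30.7, 45.6, 40.8 and 45.4 CPM in WT replicates 1 to 5. KO replicates 1 to 6 were at 33.6, 27.3, 28.2, 34.7, 39.9 and 26.3 CPM. All 6 KO libraries were below WT replicates 1, 3, 4 and 5, and 3 of them were also below WT replicate 2. In FPKM the groups overlapped more, at 6.20 to 9.74 in KO against 6.81 to 12.4 in WT, and only 2 WT libraries were above the highest KO library. The log2 fold change was -0.43 with a standard error of 0.16 (unadjusted p = 0.00641 in edgeR).

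The junction genes varied widely among libraries of the same genotype. Cdh5, which encodes VE-cadherin, was at 40.8, 32.5, 20.6, 31.2 and 21.1 CPM in WT replicates 1 to 5. It was at 34.6, 22.9, 26.5, 21.1, 19.97 and 14.3 CPM in KO replicates 1 to 6. The groups overlapped over most of their range, with a log2 fold change of -0.33 and a standard error of 0.24. Pecam1 was at 20.5 to 44.1 CPM in WT and 16.9 to 36.5 CPM in KO, with a log2 fold change of -0.41 and a standard error of 0.24. Cldn5, the claudin of the blood-retina barrier, was at 15.2 ± 1.55 CPM in WT and 15.2 ± 4.16 CPM in KO. Its log2 fold change was -0.0034 with a standard error of 0.19, and its highest value, 23.0 CPM, was in KO replicate 3.

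Among the receptors, Tek, the receptor of angiopoietins, and Tie1, its partner, had lower means in KO with overlapping groups. Tek was at 20.2 ± 3.80 CPM in WT (SD, n = 5) and 17.4 ± 3.40 CPM in KO (SD, n = 6). Tie1 was at 24.7 ± 6.41 and 19.2 ± 3.63 CPM, and all 6 KO libraries were below the WT median, but 5 of 6 in FPKM. Kdr, the main VEGF receptor of endothelium, which retinal neurons also express, went the other way. It was at 180, 103, 119, 116 and 131 CPM in WT replicates 1 to 5 and at 111, 104, 175, 165, 196 and 148 CPM in KO replicates 1 to 6. Its log2 fold change was 0.21 with a standard error of 0.20, and the 95% interval ran from -0.19 to 0.60. The log2 ratio of Kdr to Vwf was higher in 5 of 6 KO libraries than in any WT library. For the ratios of Kdr to Pecam1 and of Kdr to Cdh5 this was so in 4 of 6 KO libraries each. The share among all gene pairs was not counted.

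**Figure D2:**
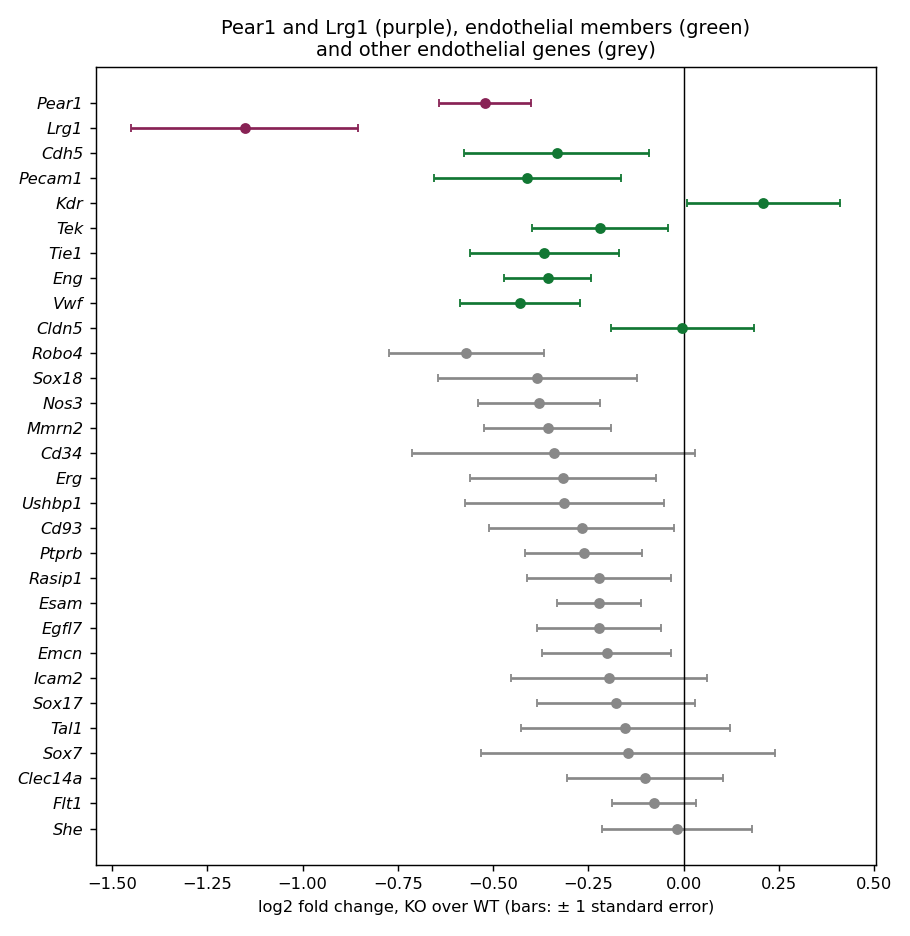
Fitted log2 fold change of KO over WT with 1 standard error for Pear1 and Lrg1 (purple), the 8 endothelial members (green) and 20 other endothelial genes (grey). Lrg1 is lowest at -1.15, Kdr is the highest at 0.21, and all 20 other endothelial genes lie below 0.

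Levels between genes were compared in FPKM, which are scaled by length. The order by mean over the 11 libraries was Kdr at 24.1, Eng at 11.6, Cldn5 at 11.1, Vwf at 8.46, Pecam1 at 8.35, Cdh5 at 6.54, Tie1 at 5.45, Tek at 4.17, Pear1 at 3.51 and Lrg1 at 1.89 FPKM. The libraries of Kdr lay above those of Eng in both genotypes, and those of Pear1 above those of Lrg1 in KO. All other neighbours in this order overlapped in both genotypes. Pear1 had the smallest relative spread among the 10 genes, with a CV of 9.08% in WT and 4.49% in KO. Lrg1 had the largest, at 31.0% and 39.0%. A choice by p-value favours a small spread within groups, so the small CV of Pear1 is in part a product of its choice.

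The endothelial level of each library was summarised as the mean log2 CPM of the 8 endothelial genes. It was 5.38, 5.01, 4.81, 5.10 and 4.85 in WT replicates 1 to 5 and 5.04, 4.66, 4.99, 4.75, 4.84 and 4.48 in KO replicates 1 to 6. The groups overlapped, and KO was lower by a mean of 0.24 on the log2 scale (KO minus WT, -0.24). For Pear1 the corresponding difference in log2 CPM was -0.51 and for Lrg1 -1.13. The sum of the CPM of the 8 genes, in which Kdr weighs most, was 332 ± 56.1 in WT and 311 ± 40.6 in KO.

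Pear1 minus this endothelial mean was -1.59, -1.42, -1.10, -1.24 and -1.29 in WT replicates 1 to 5. In KO replicates 1 to 6 it was -1.73, -1.49, -1.81, -1.57, -1.66 and -1.37. Here the groups overlapped, with 3 of 6 KO libraries below the lowest WT library and all 6 below the WT median. The difference was -0.28, so Pear1 was lower in KO by more than the endothelial mean was, but the separation of the groups was lost. With Kdr left out of the reference, the KO minus WT difference was -0.30 for the endothelial mean. That of Pear1 minus this mean was then -0.21, with 2 of 6 KO libraries below the lowest WT library and 5 of 6 below the WT median. The size depended on the reference gene, from -0.09 against Vwf and -0.12 against Pecam1 to -0.48 against Cldn5 and -0.71 against Kdr. Every one of the 8 references left Pear1 lower in KO on average. In log2 CPM over the 11 libraries the difference of Pear1, -0.51, was below that of each reference gene, the lowest of which was Vwf at -0.42. This order was not kept within the libraries named by mouse number, described further on. There Tie1, at -0.508, and Pecam1, at -0.479, were below Pear1, at -0.476. Within those named by age Pear1, at -0.55, was again the lowest. Among the other endothelial genes, the fitted value of Robo4, -0.57, was below that of Pear1, -0.52. Because Pear1 was chosen by its values in this contrast, the sign and size of these ratios are a description only.

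For Lrg1, chosen by the same contrast and so also only described, the groups of this ratio did not overlap. It was -3.01, -3.15, -3.41, -3.04 and -3.49 in WT replicates 1 to 5 and -3.56, -3.60, -4.53, -4.48, -4.42 and -4.07 in KO replicates 1 to 6. The highest KO value stayed under the lowest WT value, with a difference of -0.89. This also held with Kdr left out of the reference, at -0.83. Against single references the difference ran from -0.71 for Vwf to -1.33 for Kdr. The groups overlapped against Kdr, Eng, Vwf and Cldn5, with 4 of 6 KO libraries below the lowest WT library for each, and against the summed CPM of the 8 genes, with 5 of 6. They did not overlap against Cdh5, Pecam1, Tek or Tie1. These were the endothelial members most correlated with Lrg1 within genotype (r from 0.78 to 0.92), which narrows the spread of such ratios. How many of all genes were separated in ratios of this kind was not counted. With the mean of 20 other endothelial genes as the reference, the differences were -0.27 for Pear1 and -0.88 for Lrg1.

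The choice of Pear1 and Lrg1 by p-value drew on the size of their spread within groups, but not on the endothelial mean. Among the 6 KO libraries alone, Pear1 was correlated with the endothelial mean at Pearson's r = 0.80 (exact permutation p = 0.0597, two-sided, adjusted p = 0.119 over 2 relations). Spearman's rho was 0.83 (exact permutation p = 0.0583, adjusted p = 0.117). Without KO replicates 1 and 6, the 2 libraries farthest from the median endothelial mean, r was 0.57. In KO replicates 2 to 5, which remained, Pear1 was at 3.176 to 3.179 log2 CPM. This r therefore rests on almost no variation of Pear1 and cannot show whether Pear1 followed the endothelial mean. For Lrg1 r was 0.40 (exact permutation p = 0.417) and rho was 0.54 (exact permutation p = 0.297), both also after adjustment, and r was -0.52 without the same 2 libraries. Neither relation passed the threshold. No correlation is given over the 5 WT libraries. In these, replicates 1, 4 and 2, in this order, were the highest for both the endothelial mean and Lrg1, whereas the order for Pear1 was 4, 1, 3, 2 and 5.

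**Figure D3:**
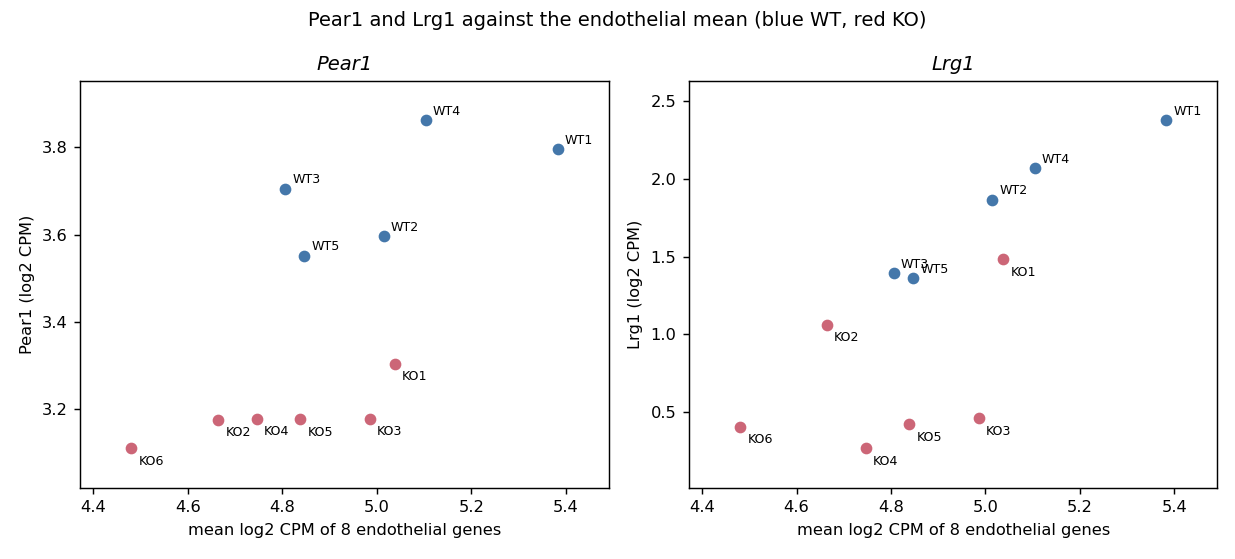
Log2 CPM of Pear1 (left) and Lrg1 (right) against the mean log2 CPM of the 8 endothelial genes, one point per library (WT blue, KO red). At a given endothelial mean the KO points lie below the WT points for both genes, and the 2 groups overlap along the horizontal axis.

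The endothelial genes did not move as one block among libraries. Correlations of the deviations from the genotype mean over the 11 libraries are given as a description, since all genes share each library's depth and tissue content. Cdh5 went with Tek (r = 0.99), Pecam1 (r = 0.96) and Tie1 (r = 0.94). Kdr went with Cldn5 (r = 0.65) and Vwf (r = 0.58), and had r = -0.07 with Cdh5. Pear1 was most like Eng among the members (r = 0.71), then Lrg1 (r = 0.66) and Cdh5 (r = 0.62), and had r = 0.00 with Kdr. Lrg1 was most like Pecam1 (r = 0.92). Over all 15766 other genes tested, those most like Pear1 were Zfp469 (r = 0.92), 2700016F22Rik (r = 0.92) and Nfib (r = 0.90). Those most like Lrg1 were Cdsn (r = 0.99), Itpripl1 (r = 0.98) and Tfcp2l1 (r = 0.97).

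**Figure D4:**
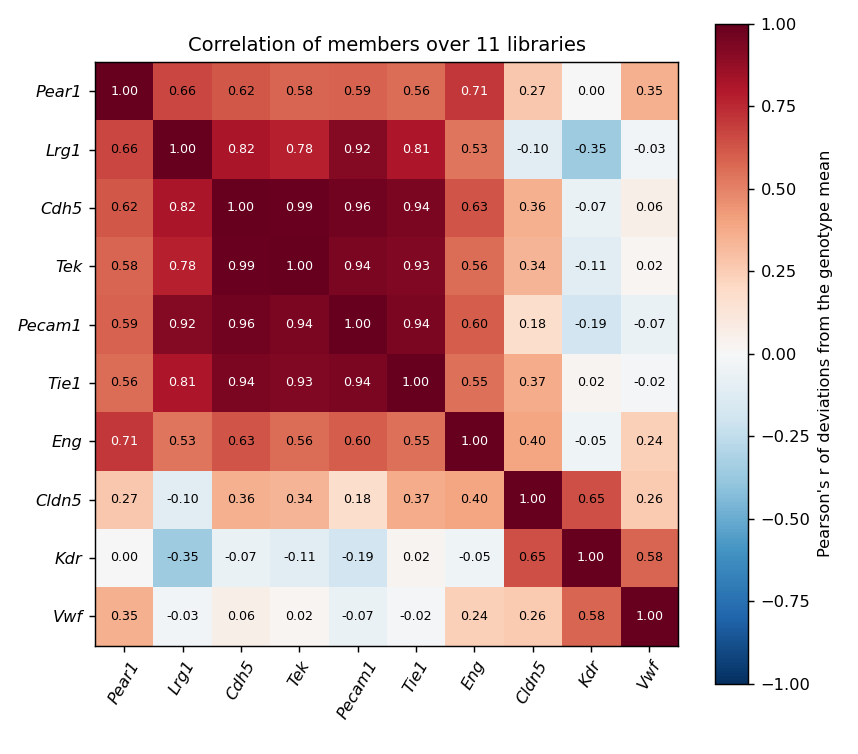
Pearson's r between the 10 genes over the 11 libraries, after the mean of each genotype was taken from the log2 CPM. Cdh5, Tek, Pecam1 and Tie1 form a block with r of at least 0.93, with Lrg1 beside it, while Kdr and Vwf have r between -0.19 and 0.06 with that block.

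Genes of skeletal muscle and fat varied among the libraries and moved with part of the members. The summed CPM of 8 skeletal muscle genes was 8852, 9153, 1140, 5601 and 3413 in WT replicates 1 to 5 and 9901, 5338, 2076, 2483, 833 and 2121 in KO replicates 1 to 6. The summed CPM of the adipocyte genes was 771, 475, 68.2, 277 and 137 in WT and 428, 127, 46.4, 62.1, 50.4 and 63.8 in KO. WT replicates 1, 2 and 4 and KO replicate 1 were the 4 highest libraries for both lists, and also for Cdh5, Pecam1, Tek, Tie1 and Lrg1. They were not the 4 highest for Pear1, Eng, Vwf, Kdr or Cldn5. The fitted value was below 0 for 8 of 8 muscle genes, with a median of -0.56, and for 9 of 9 adipocyte genes tested, with a median of -1.94, and none was called. The medians moved with single libraries, to -0.26 for muscle and -1.21 for fat without WT replicate 1, and to -1.11 and -3.75 without KO replicate 1. Without KO replicate 1, 4 adipocyte genes were called as lower in KO (Plin1, Cfd, Cidec and Pck1), and Cfd was called within the libraries named by age, a subset described further on. Fatty acid binding protein 4 (Fabp4) was the most abundant adipocyte gene in FPKM, with a log2 fold change of -1.57 and a standard error of 0.89, and adipsin (Cfd) had the largest change at -2.12 ± 1.00 (SE). Among the muscle genes Tnnt3 was at -0.51 ± 0.64 and Atp2a1 at -0.64 ± 0.62 (log2 fold change ± SE). The part of muscle and fat in the differences of Lrg1 and of the endothelial genes was not tested.

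**Figure D5:**
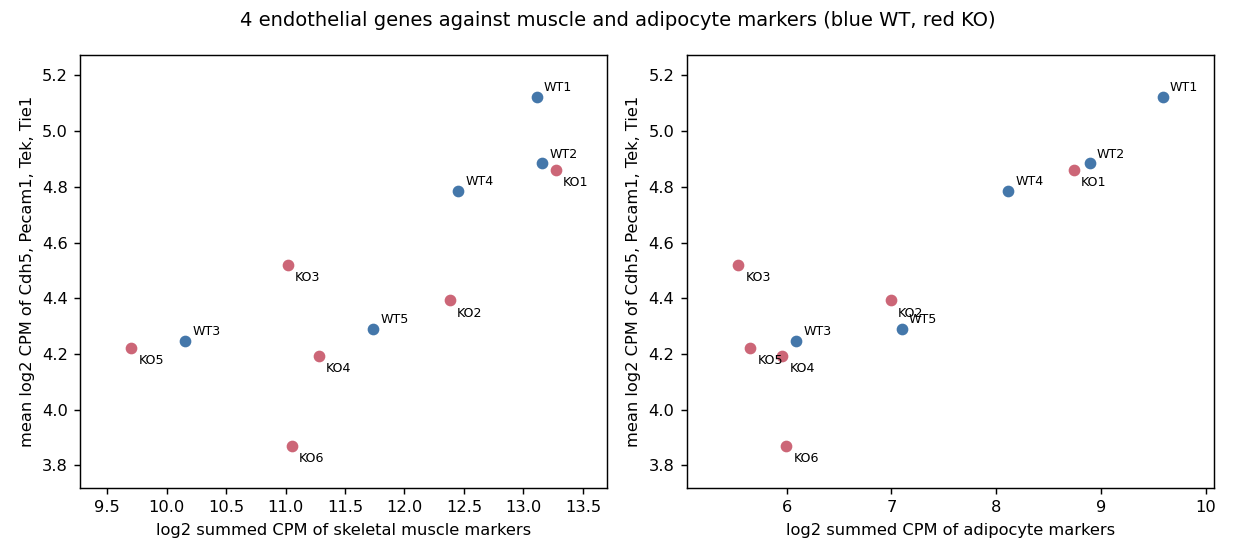
Mean log2 CPM of Cdh5, Pecam1, Tek and Tie1, a set chosen after their values were seen, against the log2 summed CPM of skeletal muscle (left) and adipocyte (right) genes, one point per library. WT replicates 1, 2 and 4 and KO replicate 1 are at the upper right in both panels.

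Other endothelial genes also had lower fitted values in KO. Of 20 further pan-endothelial genes, all 20 had a fitted value below 0, none was called, and 4 had an unadjusted p under 0.05, which were Robo4, Nos3, Mmrn2 and Esam. Their median was -0.22. Robo4, a receptor that stabilises vessels, had the largest change, at 11.7 ± 2.87 CPM in WT and 7.88 ± 1.56 CPM in KO. Its log2 fold change was -0.57, below the -0.52 of Pear1. Egfl7, the most abundant in FPKM, was at 20.5 ± 3.68 CPM in WT and 17.6 ± 2.95 CPM in KO. Without WT replicate 1, the highest library in the summed CPM of these genes, 17 of 20 were below 0 with a median of -0.13, and 1 had an unadjusted p under 0.05.

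By vessel type, values were near 0 for barrier endothelium, with a median of -0.04 and 6 of 8 genes below 0, but 3 of 8 without TMM scaling or without WT replicate 4. Slc2a1, the glucose transporter of the barrier, was at 327 ± 14.6 CPM in WT and 324 ± 28.8 CPM in KO, and Slc7a5, with the largest change of this list, was at 79.4 ± 23.1 and 70.5 ± 9.58 CPM. Of 6 genes of fenestrated endothelium all were below 0, with a median of -0.09, but 3 of 6 without WT replicate 1. Plvap, which forms the diaphragms of fenestrae, was at 30.9, 22.8, 28.5, 27.2 and 28.7 CPM in WT replicates 1 to 5 and at 22.9, 16.0, 24.9, 19.5, 21.5 and 21.8 CPM in KO replicates 1 to 6. The log2 fold change was -0.39 with a standard error of 0.14 (edgeR, unadjusted p = 0.0043). Ehd4 of the same list was at 58.0 ± 7.70 and 55.0 ± 4.53 CPM. Arterial genes were below 0 in 4 of 7, with Dll4 at -0.27 and Efnb2 at 0.03, and venous genes in 2 of 5, with Vcam1 at -0.47 and Ackr1 at 0.09. Lymphatic genes were below 0 in 5 of 7, with Ccl21a at -1.12 ± 0.76 (log2 fold change ± SE) and Reln, which retinal neurons also make, at 0.0045. No gene of these lists was called.

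Cells that share genes with endothelium were read beside it. Of 13 genes of pericytes and vascular smooth muscle, 12 were below 0 with a median of -0.19 (-0.09 without WT replicate 1) and none was called. Anpep was at -0.68 ± 0.36 and Vtn at 0.07 ± 0.14 (log2 fold change ± SE). PEAR1 is also a platelet receptor. Of 8 platelet genes 4 passed the filter, 3 of them below 0, and Gp6, a platelet collagen receptor, was at 0 counts in every library. The summed CPM of the platelet genes was 26.0 in WT replicate 1 and 13.6 to 17.5 in the other 10 libraries. Gp1bb, which made up much of this sum, was at 6.44 ± 1.10 CPM in WT and 7.46 ± 1.36 CPM in KO, and Itgb3 at 3.79 ± 1.08 and 2.80 ± 0.392 CPM. The part of platelets in the difference of Pear1 was not tested. Red cell genes were below 0 in 6 of 6, with Hbb-bs at -0.75 ± 0.61, and fibroblast genes in 8 of 8, with Col1a1 at -0.74 ± 0.47 and Dcn at -0.17 ± 0.35 (log2 fold change ± SE). The median of the red cell genes was -0.63, but -0.04 without WT replicate 2, and 1 of 6 was below 0 within the libraries named by age. That of the fibroblast genes was -0.36, but -0.10 without WT replicate 4, and 4 of 8 were below 0 within the libraries named by mouse number.

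Lrg1 is induced by interleukin-6 through STAT3 in the acute phase. Of 15 genes of that response 12 were tested, all 12 were below 0 with a median of -0.68, none was called and 3 had an unadjusted p under 0.05. The highest values were in WT replicate 1. Lipocalin 2 (Lcn2), an acute-phase protein, was at 80.1 CPM in that library and at 2.40 to 5.66 CPM in the other 10. Serpina3n, a serine protease inhibitor, was at 432 CPM there and at 28.7 to 73.5 CPM elsewhere. Without WT replicate 1 the list was below 0 in 8 of 12 with a median of -0.17, and Lcn2 was at -0.21 and Serpina3n at -0.14. The log2 fold change of Lrg1 without that library was -0.98, which is the smallest of any library left out. The neutrophil genes tested, 2 of 10, were also highest there, with S100a9 at 7.63 CPM in WT replicate 1 and 0.233 to 2.21 CPM in the others.

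The TGF-beta and BMP pathway that LRG1 modulates showed no common direction. Of 23 of 24 genes tested, 13 were below 0 and 10 above it, with a median of -0.03, and none was called. Bmp6, a ligand of this family, was at 11.3, 9.92, 10.2, 10.03 and 9.57 CPM in WT replicates 1 to 5 and at 8.24, 7.28, 6.99, 8.85, 6.13 and 8.87 CPM in KO replicates 1 to 6. Its groups did not overlap and its log2 fold change was -0.40 with a standard error of 0.15 (edgeR, unadjusted p = 0.00545). It was named after its values were seen. Id3, a target of BMP receptors and the most abundant of the list, was at -0.17 ± 0.20 (log2 fold change ± SE).

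Of the VEGF ligands, receptors and co-receptors 9 of 10 were below 0 with a median of -0.14, and none was called. Vegfa, the main ligand of Kdr, was at 208 ± 19.7 CPM in WT and 195 ± 10.5 CPM in KO. Flt4, the VEGF-C receptor, had the largest change of the list, -0.35 ± 0.15 (SE). Angiopoietin and Tie genes were below 0 in 7 of 7, with Svep1 at -0.45 ± 0.43 (log2 fold change ± SE), and none was called. Junction and adhesion genes were below 0 in 12 of 13 tested, with Icam1 at -0.58 ± 0.27 and Ctnnb1 at -0.06 ± 0.14 (log2 fold change ± SE). Their median was -0.20, but -0.05 without WT replicate 1 and -0.06 without KO replicate 5. The VEGF, Tie and junction lists repeat members and other genes already counted above. Of 7 relatives of Pear1 with EGF-like repeats 5 were below 0 and none was called over the 11 libraries. Stab1, a scavenger receptor of sinusoidal endothelium and macrophages, had the largest change. It was at 47.4, 29.8, 34.5, 41.6 and 36.6 CPM in WT replicates 1 to 5 and at 31.9, 25.2, 32.1, 24.2, 28.3 and 25.2 CPM in KO replicates 1 to 6. The groups overlapped through WT replicate 2, and the log2 fold change was -0.45 with a standard error of 0.14. It was called as lower in KO within the libraries named by age alone.

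The libraries carried 2 naming schemes in the gene table of the study, one by mouse number (WT replicates 1 and 2, KO replicates 1 to 3) and one by age (WT replicates 3 to 5, KO replicates 4 to 6). In the scheme by age, the names of WT replicate 5 and KO replicate 6 held 2m. Those of WT replicates 3 and 4 and KO replicates 4 and 5 held 1m. KO replicate 6 had the lowest endothelial mean of all libraries, at 4.48, and the part of age in this was not tested. What else the schemes stand for is not given in the sources used here. Within the libraries named by mouse number the difference in log2 CPM was -0.48 for Pear1, -1.12 for Lrg1 and -0.30 for the endothelial mean. Within those named by age it was -0.55, -1.24 and -0.23. In both, all KO values of Pear1, Lrg1 and Eng were under all WT values. The same held for Tek and Tie1 within the libraries named by mouse number, and for Pecam1 and Vwf within those named by age. How many of all genes were separated in these smaller sets was not counted, and Pear1 and Lrg1 were chosen by the contrast. Pear1 minus the endothelial mean was lower in KO by 0.17 (KO minus WT, -0.17) and by 0.32 (-0.32), and Lrg1 minus the endothelial mean by 0.82 (-0.82) and by 1.01 (-1.01). Kdr differed in sign, at -0.10 and 0.47, but the test of the difference between the schemes did not pass for any of the 10 genes (edgeR interaction, adjusted p = 1.00).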

How the data were processed

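RNA-seq of whole eyes without lens and cornea was analysed in 5 WT and 6 KO libraries. The authors aligned and quantified the reads with RSEM (version 1.2.19 in the submitters' processing notes) on Gencode mouse genes and deposited, per gene and library, an expected count and an FPKM value. Groups were taken from the labels. Expected counts were rounded, genes were kept that reached 1 CPM in 5 or more libraries, and libraries were scaled by TMM. KO was compared with WT by the likelihood ratio test of edgeR (4.0.16, R 4.3.3) with Benjamini-Hochberg adjustment and a threshold of 0.1, after the methods of the study. A log2 CPM used a prior count of 2. Permutation tests went through every order of the KO libraries in Python (3.11.15). They used numpy (2.4.6) for the correlation and scipy (1.17.1) for ranks and adjustment. The fit was tested on simulated data. Counting error is set by 20282241 to 36317673 counts per library.

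The members and gene lists were chosen with earlier results of these data known. Genes were named if they were members, were called, had the largest change or the highest FPKM of a list, or were among the 3 most like Pear1 or Lrg1. Genes with an unadjusted p under 0.05 that are given by name beside a count, and Bmp6, were added. One gene that this rule names is not reported here. Alternatives were the quasi-likelihood test, DESeq2 (1.42.0), other scalings and filters, the replicate block, the library naming scheme, and each library left out. Positions and gene names are from Gencode annotation on GRCm38. Libraries were matched to the naming schemes by proportional counts in the gene table of the study. No library pair of 55 held identical values. Replicates are separate mice by the methods, and tests measure the spread between these libraries.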

Additional observations from a re-analysis of the deposited data

Results flagged for a closer look

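Pear1 in KO replicate 1 was at 9.80 CPM, above the other 5 KO libraries, the nearest of which was at 8.98 CPM, by more of the group's range than the 95% critical value for 6 samples allows. Among 20 groups of values tested this was 1, and chance gives about 1 in 20. KO replicate 1 was also the KO library with the highest muscle and adipocyte sums, and its value was below every WT library.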

How the results depend on the processing

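The number of genes called in KO against WT was 1, and it was 0 with the quasi-likelihood test of edgeR (296 lower and 150 higher at an unadjusted p under 0.05), 2 with DESeq2, 2 with at least 1 count in at least 1 library as the filter, 10 with the replicate block, 10 with the library naming scheme as a covariate, 2 within the libraries named by mouse number and 36 within those named by age, the last 2 chosen after seeing the data. With 1 library left out it ranged from 1 to 11, with 11 without KO replicate 1 and 2 without WT replicate 2. The calls with the replicate block included 4 adipocyte genes (Plin4, Cfd, Cidec and Pck1) and the acute-phase gene Hp, at a log2 fold change of -2.37. None of the 8 endothelial genes was called under any of these. Same-numbered libraries correlated at -0.332 to 0.633, with 3 of 5 pairs over 0.1, and 4 of 10 libraries correlated best with their own number, so the numbers were not taken to pair the mice.

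Over all alternatives the log2 fold change stayed between -0.56 and -0.47 for Pear1, between -1.35 and -0.98 for Lrg1, and the median of the endothelial genes between -0.43 and -0.21. Pear1 relative to the endothelial mean ran from -0.44 with that mean as a covariate to -0.17 within the mouse-number libraries, and Lrg1 from -1.04 to -0.80. Kdr changed sign within the mouse-number libraries (-0.12). Cldn5, near 0, changed sign with upper-quartile scaling (0.0104), without TMM (0.0427), with the replicate block (0.0082) and within the mouse-number libraries (0.0276), and ranged from -0.161 to 0.0772 with 1 library left out. With 26 to 144 counts per library, counting error adds to the spread of Lrg1. How small a difference of Lrg1 could be detected was not tested.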
